A study of Mus musculus with 6 samples.

Results

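The cytosolic ribosomal protein genes encode the proteins of the large (60S) and small (40S) ribosomal subunits. They were taken as every row of the deposited count table whose symbol follows the mouse naming pattern of the family and whose counts sum to at least 60 over the 6 libraries. This gave 78 of the 23225 gene rows, 47 for the large subunit and 31 for the small. The rule itself uses the symbol and the summed count and no difference between the genotypes.

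The libraries came from tumour-associated dendritic cells, antigen-presenting cells of the immune system, sorted from tumours and ascites of ID8, a mouse ovarian cancer line, at day 23. Wild-type C57BL/6 mice (WT, 3 libraries) were compared with C57BL/6 mice carrying a conditional knockout of XBP1 confined to their CD11c positive cells (XBP1-KO, 3 libraries). CD11c is carried by dendritic cells and also by some macrophages and other leukocytes, and the labels name neither the Cre line nor the sort gate. XBP1 is a transcription factor of the endoplasmic reticulum stress response, best known for driving the secretory machinery. The libraries of a genotype are called a, b and c, and the letter pairs nothing. Whether each sample was a different animal is not stated, so a p-value reflects only how much these samples differ among themselves, which may be technical.

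Ribosomal protein mRNAs are among the most abundant of any cell, and their products are needed in equal numbers. Most of these mRNAs begin with a C followed by a run of pyrimidines, the terminal oligopyrimidine (TOP) motif, through which mTORC1 and LARP1 control their translation and stability together. A separate set of proteins assembles the particles in the nucleolus, where RNA polymerase I makes the ribosomal RNA. Levels below are CPM, the counts relative to the library total, scaled by TMM factors, unless a sentence names another scale, and log2 fold changes set XBP1-KO over WT.

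Libraries held 26946349 to 32709100 counts. Xbp1 itself had 67.2, 48.7 and 76.8 CPM in WT and 32.5, 30.9 and 40.4 CPM in XBP1-KO, with no overlap (log2 fold change -0.89, SE 0.18, adjusted p = 0.0545 by edgeR's quasi-likelihood test). Summed markers of T and NK cells had 305 to 327 CPM in WT and 450 to 653 CPM in XBP1-KO. The dendritic cell marker sum was 80524 to 130521 CPM in WT and 74996 to 107168 CPM in XBP1-KO, most of it Cd74, a chaperone of MHC class II molecules (84376 ± 21488 CPM in WT, SD, n = 3). Of its 15 genes 12 had estimates below 0, with a median log2 fold change of -0.19, 0 were called and none was at 0. Ciita, the regulator of MHC class II genes (-0.47, SE 0.13), and Zbtb46 (-0.23, SE 0.21) lay lower without overlap. Itgax, which encodes CD11c, lay higher without overlap (0.50, SE 0.13). On the second principal component of all genes, WT b and XBP1-KO b had scores of 38.3 and 30.1, WT a and WT c -2.59 and -0.99, and XBP1-KO a and XBP1-KO c -45.0 and -19.8.

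The 3 genes given as marks of the family were abundant. Rps19 of the small subunit had 1520 ± 258 CPM in WT (SD, n = 3), Rpl4 of the large subunit 1491 ± 171 CPM and Rplp0 of the stalk 1535 ± 215 CPM. Of the 78 genes, 76 had a mean of at least 50 CPM in these cells. The remaining pair were Rpl3l, a paralogue of Rpl3 known from muscle, and Rpl39l, a paralogue of Rpl39 known from testis. Rpl3l lay just inside the count limit with 87 summed counts, and Rpl10l, a testis paralogue of Rpl10, just outside with 39.

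The sequences at the annotated starts show the pyrimidine run that many promoters of the family have and others lack. They are those of the 3 members of each subunit with the highest and the 3 with the lowest log2 fold change among members with at least 50 CPM, where RefSeq (GRCm38.p6) gave a window. Each line gives 40 bases before the start and 20 from it on, 5′ to 3′ on the gene's strand, and capitals mark a run of at least 8 C or T overlapping the 10 bases on either side of the start.
Rpl13, chr8:123102310-123102369, plus strand: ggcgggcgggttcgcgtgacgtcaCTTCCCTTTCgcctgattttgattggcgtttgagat
Rpl22l1, chr3:28805468-28805527, plus strand: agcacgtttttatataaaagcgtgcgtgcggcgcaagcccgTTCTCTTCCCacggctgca
Rpl27a, chr7:109519155-109519214, plus strand: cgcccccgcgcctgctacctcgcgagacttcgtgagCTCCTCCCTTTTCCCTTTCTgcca
Rps2, chr17:24720023-24720082, plus strand: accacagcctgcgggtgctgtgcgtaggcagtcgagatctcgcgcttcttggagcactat
Rps27, chr3:90213629-90213688, minus strand: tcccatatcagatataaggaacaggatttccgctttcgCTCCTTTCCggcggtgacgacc
Rps10, chr17:27635225-27635284, minus strand: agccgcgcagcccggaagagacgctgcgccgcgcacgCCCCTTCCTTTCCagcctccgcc
Rpl10, chrX:74270776-74270835, plus strand: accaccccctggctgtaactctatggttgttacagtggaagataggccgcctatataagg
Rpl7l1, chr17:46782637-46782696, minus strand: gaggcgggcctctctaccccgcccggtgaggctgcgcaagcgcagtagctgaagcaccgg
Rplp0, chr5:115559427-115559486, plus strand: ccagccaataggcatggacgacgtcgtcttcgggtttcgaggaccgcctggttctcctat
Rpsa, chr9:120127726-120127785, plus strand: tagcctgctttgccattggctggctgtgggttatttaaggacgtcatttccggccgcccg
Rps9, chr7:3704001-3704060, plus strand: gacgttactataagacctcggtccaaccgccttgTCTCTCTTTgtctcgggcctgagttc
Among those shown, the run is present in 5 of the 6 upper sequences, all but that of Rps2, and in 1 of the 5 lower ones, that of Rps9. Of all 58 members with a window, the 27 with the run had a median log2 fold change of 0.23 and the 31 without it a median of 0.23. Annotated starts were used, and where transcription started in these cells was not measured.

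Among 300-base windows from 250 before to 50 after the start, the run stood in 28 of 70 member windows (40%), against 13.7% of 32851 windows of all genes. CTTTCC on the sense strand was in 37.1% of member windows and 14.1% of all. CCGGAAG, the core bound by ETS family factors, was in 35.7% of member windows and 8.86% of all, read on both strands. AAGATGG, the core of the YY1 motif, was in 15.7% against 6.34%, also on both strands. TATAAA on the sense strand was about as frequent in members (8.57%) as in all windows (8.32%). CTTTCC can lie within the pyrimidine run, and each match is a match of letters only.

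The ribosomal protein genes took a larger part of the XBP1-KO libraries. Without TMM scaling, their share of all counts was 4.82%, 4.07% and 4.53% in WT a, b and c and 5.42%, 5.16% and 5.74% in XBP1-KO a, b and c. All 3 XBP1-KO libraries lay above all 3 WT libraries on that scale, and the mean share was 1.22 times as high. On the TMM scale the genotypes overlapped.

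The large subunit genes summed to 28416, 22025 and 28048 CPM in WT and to 30956, 27677 and 30701 CPM in XBP1-KO. WT b was the lowest of the 6 libraries and XBP1-KO b lay below WT a and WT c. The means were 26163 ± 3588 and 29778 ± 1824 CPM (SD, n = 3), a ratio of 1.14, and 1.05 without WT b.

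The small subunit genes summed to 22068, 16766 and 21414 CPM in WT and to 23985, 21612 and 23859 CPM in XBP1-KO. The order of the libraries was nearly that of the large subunit, with WT b lowest and XBP1-KO b between WT c and WT a. The means were 20082 ± 2891 and 23152 ± 1335 CPM, a ratio of 1.15, and 1.06 without WT b.

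The balance of the subunits moved little. Large over small subunit counts came to 1.29, 1.31 and 1.31 in WT and 1.29, 1.28 and 1.29 in XBP1-KO. The means were 1.30 ± 0.0141 and 1.29 ± 0.00506 (SD, n = 3), and WT a lay within the XBP1-KO range. In bulk samples, fewer cells of a type and less RNA per cell cannot be told apart.

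**Figure D1:**
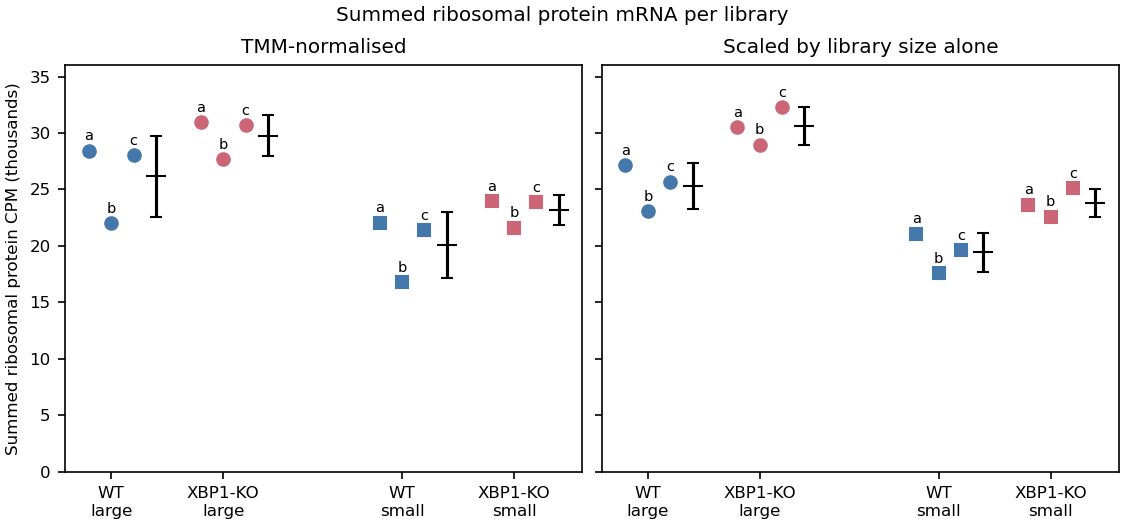
Summed level of the 47 large and 31 small subunit genes in each library, in TMM-scaled CPM (left) and scaled by library size alone (right). Each point is a library. On the left the genotypes overlap because XBP1-KO b lies at the level of WT a and WT c. WT b there is at 22025 CPM for the large and 16766 CPM for the small subunit. On the right the genotypes do not overlap for either subunit.

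No single ribosomal protein gene passed the test. By edgeR's quasi-likelihood test 0 of 78 were called at an adjusted p under 0.05, against 0.445% of all 15958 genes tested in either direction. At an unadjusted p under 0.05 there were 9 (4 large, 5 small), all higher in XBP1-KO, where 4.59% of all genes were higher at that p. DESeq2 called 0 of 78 after adjustment, where it called 3.6% of all genes with an adjusted p, and 7 were under 0.05 before adjustment.

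The estimates lay on the same side. Members differed between libraries mostly together, as given below, so their signs and overlaps are not independent observations. The log2 fold change was above 0 for 46 of 47 large subunit genes and for 31 of 31 small subunit genes, against 56.1% of all genes tested and 41.1% of the 3118 genes with a mean of at least 50 CPM. The median was 0.23 for the large and 0.22 for the small subunit, beside 0.06 for all genes tested and -0.06 for those with at least 50 CPM. Without WT b the medians were 0.09 and 0.08, and 69 of 78 estimates were above 0. In the 4 libraries without WT b and XBP1-KO b, the medians were 0.14 and 0.13.

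The lowest XBP1-KO library lay above the highest WT library for 33 genes, 18 large and 15 small, and in no gene did the reverse hold. Over all genes, 19.2% did not overlap, 8.8% higher and 10.4% lower in XBP1-KO. Of the 76 members with at least 50 CPM, 32 were higher without overlap, where 6.16% of all genes at that level were.

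**Figure D2:**
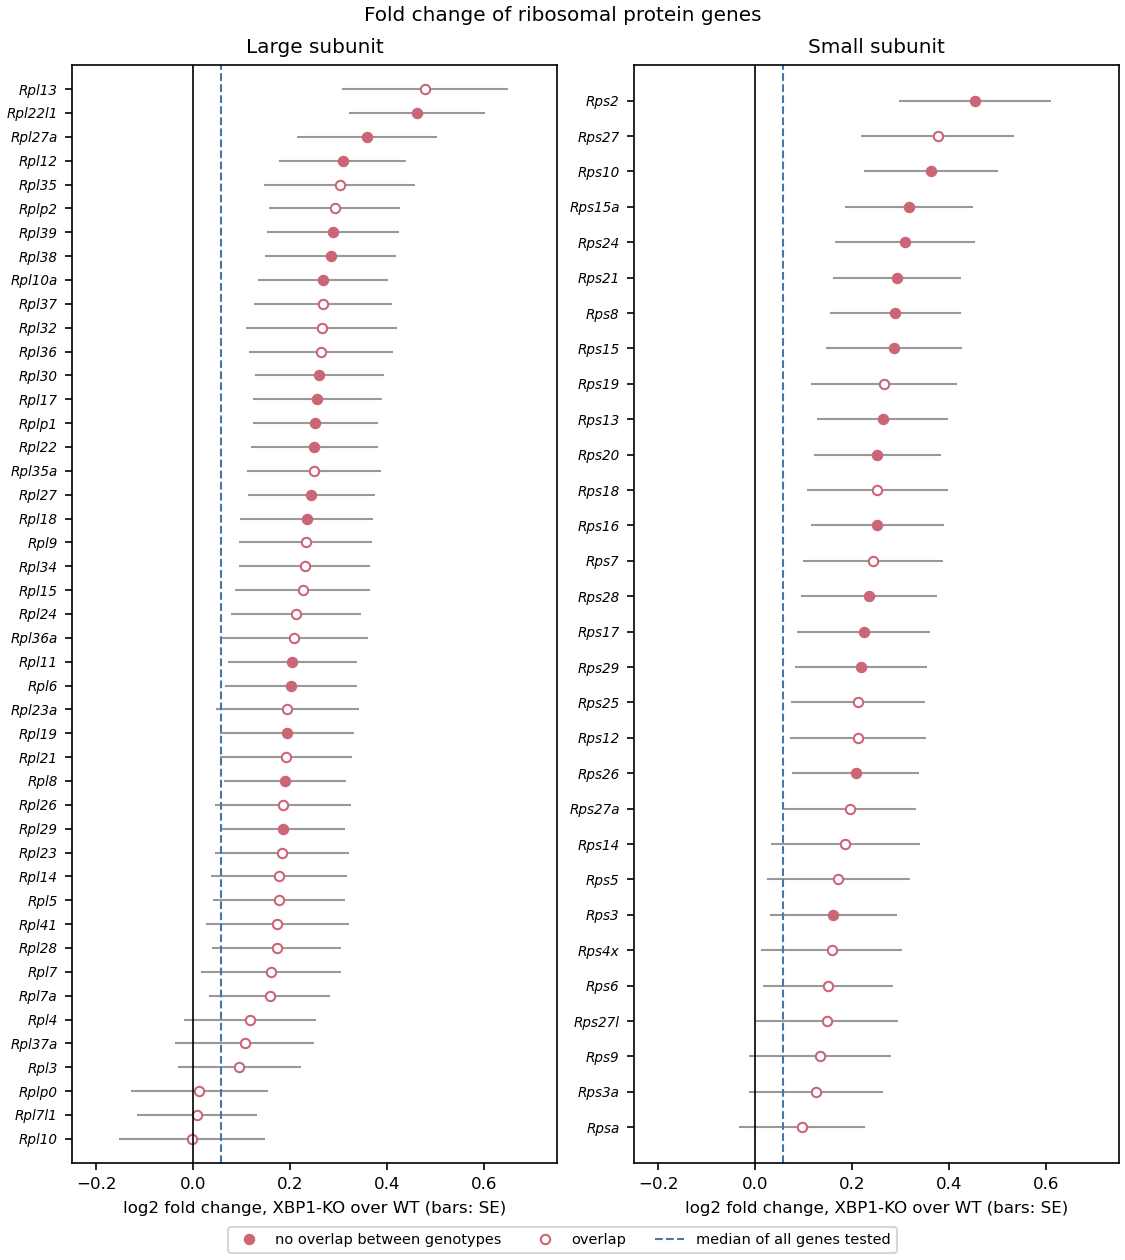
The log2 fold change of XBP1-KO over WT, with its standard error, for the large and small subunit genes drawn, all with at least 50 CPM. Filled points mark genes whose libraries do not overlap, the dashed line is the median of all genes tested, and the points run from Rpl10 at -0.00 to Rpl13 at 0.48.

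The members of the family differed between libraries mostly together. Over the 76 members with at least 50 CPM, 86.9% of the variance of the centred log2 levels was common to all members of a library. The median member deviated from its own mean by -0.35 in WT b, by 0.02 in WT a, -0.00 in WT c and 0.02 in XBP1-KO b, and by 0.17 and 0.16 in XBP1-KO a and XBP1-KO c. Members scattered around their library's mean with an SD of 0.0743 on the log2 scale. WT b was the lowest library for 74 of 78 genes, and the highest was XBP1-KO a for 39 and XBP1-KO c for 35. Of the 76 genes, 56 had a log2 fold change between 0.15 and 0.30.

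The T and NK cell markers did not rank the libraries in the same way. Their mean log2 level was 2.72, 2.90 and 2.54 in WT and 3.68, 4.16 and 3.43 in XBP1-KO, so that XBP1-KO b had the highest marker level and the lowest ribosomal protein sum of its genotype. Of the 22 markers tested 21 had estimates above 0, and Cd3e, Lck, Nkg7, Ncr1, Xcl1 and Ms4a4b rose. With this level as a covariate the medians became 0.58 for the large and 0.59 for the small subunit, with 0 members called. The marker level did not overlap between the genotypes, so in 6 libraries this fit can hardly separate it from genotype. Over the whole table that fit called 7 genes, against 71 without the covariate.

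B cell markers summed to 186 to 360 CPM in WT and 378 to 538 CPM in XBP1-KO, with 9 of 10 estimates above 0. Cd79a had 66.3, 25.3 and 47.0 CPM in WT and 97.8, 83.5 and 126 CPM in XBP1-KO. That is the library order of the ribosomal protein share without TMM scaling. Other B cell markers did not all keep this order, and Fcrla, the one below 0, was highest in WT b. Neutrophil markers summed to 95.8 to 315 CPM and 302 to 571 CPM, with 9 of 9 above 0. S100a8, S100a9 and Retnlg lay higher without overlap. Elane, Mpo, Camp, Ltf and Ngp overlapped and were lowest in WT b and XBP1-KO b, where Cxcr2 was highest. Ngp had 70.1, 0.354 and 11.8 CPM in WT and 86.6, 0.641 and 121 CPM in XBP1-KO. Of the mast cell markers, whose sums were 114 to 178 CPM and 137 to 189 CPM, 6 of 7 lay above 0, and Cpa3, Cma1 and Tpsb2 rose. Kit, the only one below 0, lay lower without overlap (log2 fold change -0.68, SE 0.22). It made up most of the WT sum (102 ± 35.5 CPM in WT). Macrophage markers summed to 15374 to 26145 CPM in WT and 19017 to 22937 CPM in XBP1-KO, most of it Lyz2 in WT (15673 ± 5258 CPM), and 8 of 14 estimates lay above 0. Mrc1, the mannose receptor, fell (log2 fold change -0.76, SE 0.14, adjusted p = 0.0455 by edgeR). Mertk also lay lower without overlap, and Icam2, C1qa and C1qc higher. Tumour and mesothelial markers (155 to 191 and 133 to 211 CPM, 6 of 10 above 0) overlapped. The 3 erythroid markers tested, Hba-a2, Hbb-b1 and Alas2, overlapped and were highest in WT b and XBP1-KO b. Hba-a2 had 9.54, 82.5 and 8.75 CPM in WT and 9.33, 92.6 and 12.2 CPM in XBP1-KO. None of these lists had a gene at 0 in every library, and the part that these cells have in the ribosomal protein levels was not tested.

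**Figure D3:**
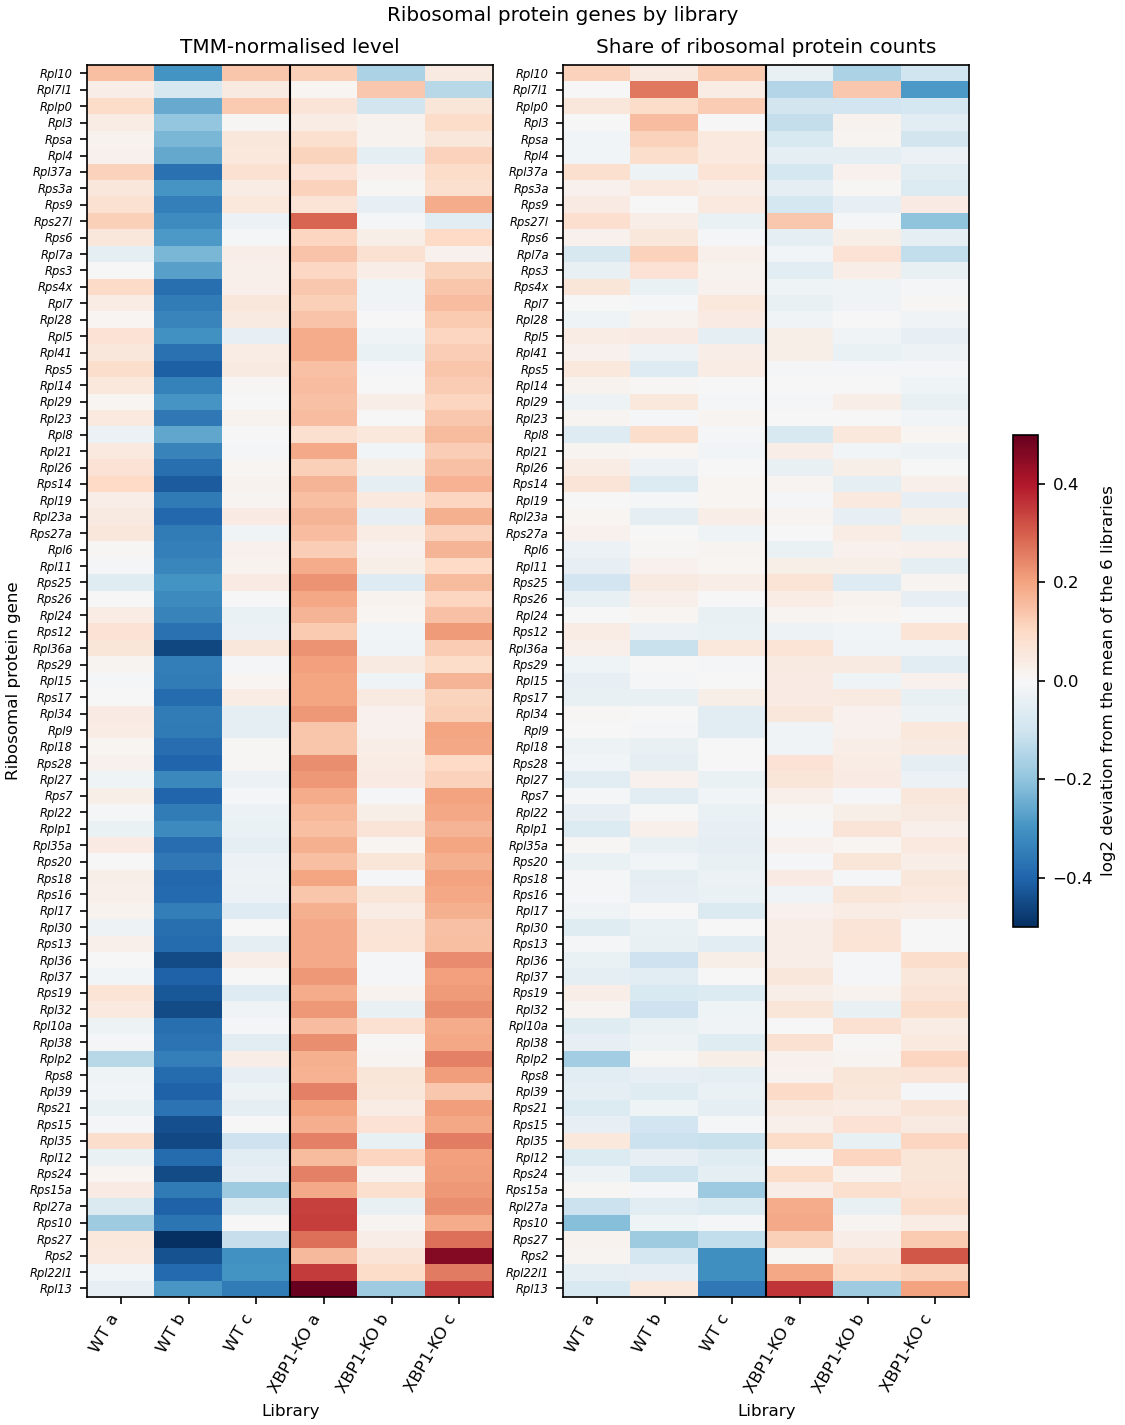
Ribosomal protein genes with at least 50 CPM in each library, drawn as the log2 deviation of a gene from its own mean over the 6 libraries, for the TMM-scaled level (left) and for the share of ribosomal protein counts (right) and ordered by the change in share. On the left WT b is low for nearly every gene and XBP1-KO a and XBP1-KO c are high, with median deviations of -0.35, 0.17 and 0.16, and most of this is gone on the right.

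The stalk is the flexible arm of the large subunit that recruits the GTPase factors of translation. Its base protein Rplp0 had 1636, 1288 and 1681 CPM in WT and 1606, 1439 and 1600 CPM in XBP1-KO. These values overlapped fully, and the log2 fold change was 0.01 (SE 0.14, adjusted p = 0.977 by edgeR).

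Rplp1, an acidic protein that binds Rplp0, had 489, 401 and 488 CPM in WT and 555, 523 and 563 CPM in XBP1-KO. Its partner Rplp2 had 407, 354 and 459 CPM and 507, 452 and 534 CPM. Rplp1 did not overlap between genotypes, and Rplp2 overlapped only through WT c, which lay above XBP1-KO b.

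Rpl12, which sits at the stalk base beside Rplp0, had 203, 159 and 200 CPM in WT and 232, 224 and 240 CPM in XBP1-KO. It did not overlap, with a log2 fold change of 0.31 (SE 0.13, adjusted p = 0.337 by edgeR). The 4 stalk genes had a median of 0.27, and 0 of 4 were called.

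Rpl5 and Rpl11 form a particle with the 5S ribosomal RNA that binds MDM2 when ribosome assembly stalls. Rpl5 had 691, 532 and 638 CPM in WT and 747, 648 and 707 CPM in XBP1-KO. Rpl11 had 578, 464 and 587 CPM and 660, 594 and 623 CPM. Rpl11 did not overlap between the genotypes and Rpl5 did, with log2 fold changes of 0.20 and 0.18 and 0 of 2 called.

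The genes at the exit tunnel, through which the growing chain leaves, had 7 of 7 estimates above 0 with a median of 0.19, and 0 were called. Rpl4, whose loop lines the tunnel, had 1573, 1295 and 1605 CPM in WT and 1671, 1500 and 1677 CPM in XBP1-KO. Its log2 fold change was 0.12 (SE 0.14, adjusted p = 0.751 by edgeR) and lay at -0.00 without WT b. Rpl39, a small tunnel protein, had 244, 186 and 242 CPM and 294, 257 and 271 CPM, with no overlap.

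Rpl10, added late to the large subunit and needed for joining to the small one, had the lowest estimate of all 78. It had 1098, 803 and 1087 CPM in WT and 1074, 886 and 1020 CPM in XBP1-KO. All XBP1-KO libraries lay within the WT range (log2 fold change -0.00, SE 0.15, adjusted p = 0.992 by edgeR), and the estimate was 0.05 when libraries were scaled by their upper quartile and 0.08 when scaled by total counts only.

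Rpl13 had the highest log2 fold change of the large subunit among members with at least 50 CPM, 0.48 (SE 0.17, adjusted p = 0.252 by edgeR). Its levels were 142, 119 and 114 CPM in WT and 208, 129 and 186 CPM in XBP1-KO. XBP1-KO b lay below WT a, and the adjusted p was 0.0544 without XBP1-KO b, the lowest of any member under any of 20 alternatives.

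Rpl27a, a protein of the subunit's core, had 318, 253 and 321 CPM in WT and 424, 326 and 394 CPM in XBP1-KO. The genotypes did not overlap, with XBP1-KO b just above WT c (log2 fold change 0.36, SE 0.14, adjusted p = 0.308 by edgeR).

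Of the small subunit, Rps2, at the entry of the mRNA channel, had 106, 75.9 and 83.2 CPM in WT and 115, 107 and 141 CPM in XBP1-KO. XBP1-KO b lay just above WT a, and the log2 fold change was 0.45 (SE 0.16, adjusted p = 0.229 by edgeR). Rps27, a zinc-binding protein, had 853, 571 and 757 CPM in WT and 995, 840 and 995 CPM in XBP1-KO. Its log2 fold change was 0.38 (SE 0.16, adjusted p = 0.329 by edgeR), and XBP1-KO b lay below WT a.

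Rps10, at the mRNA entry side of the head, had 176, 154 and 198 CPM in WT and 253, 201 and 226 CPM in XBP1-KO, with no overlap. All 14 genes of the head, the part of the small subunit that moves as the mRNA advances, had estimates above 0, with a median of 0.23, 8 without overlap and 0 called.

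Rps19, which is needed for the 3′ end processing of 18S ribosomal RNA, had 1739, 1236 and 1586 CPM in WT and 1886, 1676 and 1919 CPM in XBP1-KO. WT a lay above XBP1-KO b (log2 fold change 0.27, SE 0.15, adjusted p = 0.489 by edgeR). Rps19 is also the member most often mutated in Diamond-Blackfan anaemia, and the 12 members of that list had a median of 0.22, with 12 of 12 above 0 and 0 called.

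Rps6, the substrate of S6 kinase downstream of mTORC1, had 1235, 972 and 1182 CPM in WT and 1278, 1210 and 1273 CPM in XBP1-KO. WT a lay above XBP1-KO b and below XBP1-KO a and XBP1-KO c. The log2 fold change was 0.15 (SE 0.13, adjusted p = 0.670 by edgeR).

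Rps27a, made as a fusion with ubiquitin, had 715, 540 and 680 CPM in WT and 765, 706 and 745 CPM in XBP1-KO. Rps4x, on the X chromosome with Rpl10, Rpl36a and Rpl39, had 800, 575 and 761 CPM and 821, 738 and 824 CPM. Rps14, of the platform, had 1277, 894 and 1206 CPM and 1341, 1156 and 1343 CPM. In all 3 genes the range of XBP1-KO overlapped that of WT, with log2 fold changes of 0.20, 0.16 and 0.19.

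The lowest estimates of the small subunit belonged to Rpsa, Rps3a and Rps9. Rpsa, also described as a laminin receptor, had 1358, 1144 and 1394 CPM in WT and 1416, 1355 and 1394 CPM in XBP1-KO. Rps3a had 1522, 1193 and 1503 CPM and 1584, 1471 and 1546 CPM. Rps9 had 1491, 1116 and 1468 CPM and 1484, 1376 and 1610 CPM. All 3 overlapped, and the log2 fold changes of 0.10, 0.13 and 0.13 became -0.01, -0.01 and -0.02 without WT b.

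The paralogues differed in where they stood. Rpl22l1, which can take the place of Rpl22, had 91.0, 70.1 and 74.5 CPM in WT and 117, 97.8 and 110 CPM in XBP1-KO. All 3 XBP1-KO libraries lay above WT, and its log2 fold change of 0.46 (SE 0.14) had the smallest adjusted p of the family, 0.168 by edgeR. Rpl22 had 161, 127 and 158 CPM and 181, 165 and 185 CPM, also without overlap, with a log2 fold change of 0.25 (SE 0.13). The difference between the pair was not tested.

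Rpl7l1, a paralogue of Rpl7 with a role in assembly, had 228, 211 and 230 CPM in WT and 224, 245 and 202 CPM in XBP1-KO. Here XBP1-KO b was the highest and XBP1-KO c the lowest library (log2 fold change 0.01, SE 0.12, adjusted p = 0.982 by edgeR). Rpl7 had 1556, 1191 and 1579 CPM and 1650, 1498 and 1688 CPM.

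Rps27l, which is also a target of p53, had 218, 162 and 197 CPM in WT and 246, 199 and 193 CPM in XBP1-KO. Its libraries overlapped, with a log2 fold change of 0.15 (SE 0.15, adjusted p = 0.705 by edgeR).

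Rpl3l had 4, 11 and 9 counts in WT and 20, 20 and 23 counts in XBP1-KO. The counts did not overlap, and the log2 fold change was 1.33 (SE 0.64, adjusted p = 0.414 by edgeR). Rpl39l had 6, 32 and 21 counts and 38, 32 and 3 counts, with no order between the genotypes.

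Levels between genes can be compared only per length. In WT the median of the 76 members was 1038 CPM per kilobase of coding sequence. Rps2 (100 ± 17.9), Rpl13 (197 ± 22.9), Rpl22l1 (213 ± 29.8), Rpl7l1 (300.5 ± 14.2) and Rps10 (353 ± 44.1) were the lowest on this scale (SD, n = 3). Rpl41 was the highest at 16639 ± 2652, on a coding sequence of 78 bases, followed by Rps29 at 3983 ± 535 and Rps19 at 3471 ± 588. Coding length leaves out the untranslated bases, from which reads also come, so the scale is too high where these are many. The Rpl41 transcript has 582 bases, and its height here is largely due to the choice of length. Rps2, Rpl13, Rpl22l1 and Rps10 were thus among both the lowest levels per coding length and the highest fold changes. Rpl7l1, also among the lowest levels, had a log2 fold change of only 0.01. The WT level also enters the fold change, so a low level and a high fold change are not independent.

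Processed copies of ribosomal protein genes are spread over the mouse genome, and reads from the parent gene can match them. In the GENCODE annotation vM21, 56 of 78 members had at least 1 pseudogene named after them, 24 for Rps12, 14 for Rps19, 11 for Rps2, 6 for Rpl13, 4 for Rps10 and 0 for Rpl22l1. How such reads were counted is not given in the sources used here, so these levels are uncertain.

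The composition of the family was compared as each member's share of all ribosomal protein counts, which does not depend on the scaling between libraries. The share lay higher in XBP1-KO without overlap for 20 members (11 large, 9 small) and lower for 6 (4 large, 2 small), among them Rpl10, Rplp0, Rpl4 and Rps3a. Counts of all genes per ribosomal protein count were higher without overlap for 2.89% of genes and lower for 18.4%. Ribosomal protein counts took a larger part of every XBP1-KO library, so dividing by them lowers other genes in XBP1-KO. Member shares add up to the whole and move both ways, so these percentages are no background for the members. Without WT b, 22 members were higher and 11 lower, and without XBP1-KO b 28 and 12, with fewer samples to overlap.

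Rplp0 made up 3.24%, 3.32% and 3.40% of ribosomal protein counts in WT and 2.92%, 2.92% and 2.93% in XBP1-KO. Rpl10 made up 2.17%, 2.07% and 2.20% in WT and 1.95%, 1.80% and 1.87% in XBP1-KO. Rpl4 made up 3.12%, 3.34% and 3.25% and then 3.04%, 3.04% and 3.07%. In these 3 the XBP1-KO shares were lower throughout, and those of Rplp0 hardly differed among the XBP1-KO libraries.

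Rps27 made up 1.69%, 1.47% and 1.53% in WT and 1.81%, 1.71% and 1.82% in XBP1-KO. Rpl22l1 made up 0.180%, 0.181% and 0.151% and then 0.213%, 0.198% and 0.201%. Rpl27a made up 0.630%, 0.653% and 0.649% and then 0.772%, 0.662% and 0.722%. The genotypes did not overlap in any of the 3, and Rpl27a in XBP1-KO b was the closest to WT.

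Fold changes were higher, on the median, among shorter members. The 26 members of 78 to 402 coding bases had a median log2 fold change of 0.25, the 25 of 408 to 579 bases 0.23 and the 25 of 585 to 1260 bases 0.16. Spearman's rho of the log2 fold change with coding length was -0.44 over the 76 members (-0.49 large, -0.34 small), across genes that share their libraries. With the WT level it was -0.55, a value that enters both sides, and with GC content 0.22.

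The whole table showed the same direction. Over 14215 genes tested with a length, rho of the log2 fold change with transcript length was -0.21, and members had a median transcript of 857.5 bases against 2979 bases for those genes. With trends in length and GC removed, the medians of the subunits were 0.06 and 0.07, 68 of 78 estimates were above 0, and 0 members were called. The part of length in the genotype difference was not tested beyond this.

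**Figure D4:**
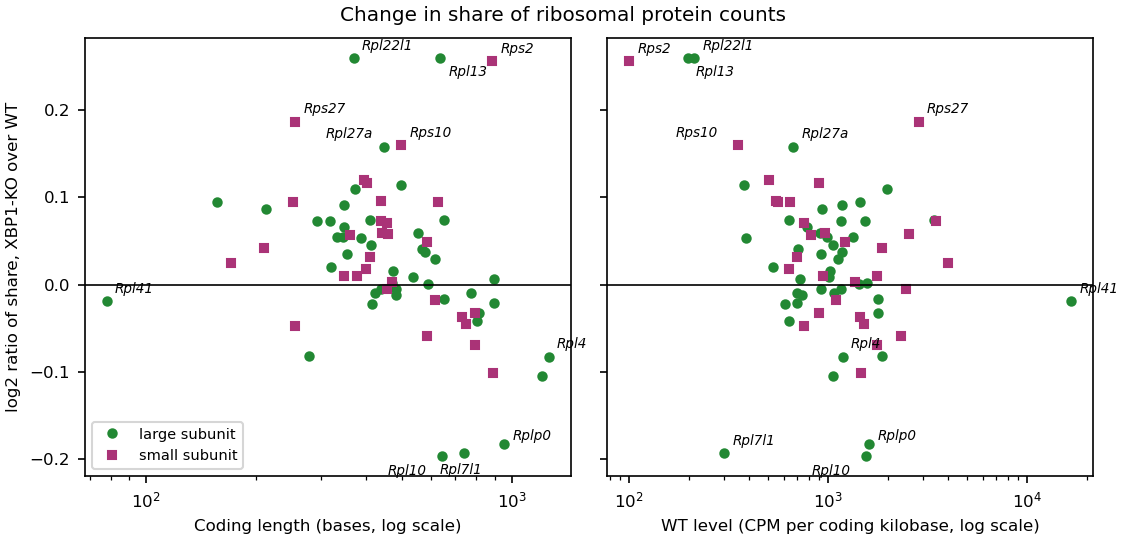
Log2 ratio of each member's share of ribosomal protein counts, XBP1-KO over WT, against its coding length (left) and its WT level in CPM per coding kilobase (right), both on log axes, with a point for a gene with at least 50 CPM. Rpl10, Rpl7l1 and Rplp0 lie lowest, and Rpl13, Rpl22l1 and Rps2 highest.

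Ribosomal proteins whose symbols fall outside the naming pattern were looked up separately. Fau, a ubiquitin-like fusion that gives the small subunit protein eS30, had a log2 fold change of 0.18 (SE 0.15), and Gnb2l1, the scaffold RACK1 of the small subunit, 0.04 (SE 0.14). Rpl36al, a paralogue of Rpl36a, had 188, 153 and 174 CPM in WT and 159, 160 and 149 CPM in XBP1-KO. All 3 overlapped, and by edgeR 0 were called and 0 had an unadjusted p under 0.05.

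Other TOP mRNAs did not lie as uniformly higher. Of 20 tested, 13 had estimates above 0, with a median of 0.08, and 0 were called, with 4 at an unadjusted p under 0.05. Unadjusted counts here and for the gene lists that follow take either direction. Among all 15958 genes tested, 2051 were under 0.05 in either direction by the same test. Eef2, the elongation factor that moves the ribosome along the mRNA, had 524, 581 and 553 CPM in WT and 368, 414 and 389 CPM in XBP1-KO. All XBP1-KO libraries lay below all WT libraries (log2 fold change -0.50, SE 0.12, adjusted p = 0.0896 by edgeR), and DESeq2 gave an adjusted p of 0.0155. Eef1a1, the most abundant elongation factor, had a log2 fold change of -0.02 (SE 0.14), and Tpt1 0.47 (SE 0.17). Eif2s3x, a subunit of eIF2, lay lower without overlap, at -0.35 (SE 0.12, adjusted p = 0.228 by edgeR).

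The machinery that builds ribosomes showed no common direction. Of 39 assembly factors 17 had estimates above 0, with a median of -0.01, and 0 were called, with 3 at an unadjusted p under 0.05. Mybbp1a, a nucleolar protein that binds MYB and acts in ribosomal RNA synthesis, had 61.0, 79.5 and 68.5 CPM in WT and 40.3, 52.8 and 44.0 CPM in XBP1-KO, without overlap (log2 fold change -0.61, SE 0.15, adjusted p = 0.0998 by edgeR and 0.0235 by DESeq2). Nolc1, a nucleolar chaperone, had a log2 fold change of -0.42 (SE 0.17).

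Of the 17 RNA polymerase I genes 13 lay above 0 (median 0.11, 0 called, 1 unadjusted), and the largest subunit Polr1a had a log2 fold change of -0.48 (SE 0.22, adjusted p = 0.373 by edgeR). Polr2l, a small subunit common to the RNA polymerases, lay higher without overlap at 0.23 (SE 0.14). Of 6 small nucleolar RNA host genes 6 lay above 0, with a median of 0.49, 0 called and 3 unadjusted. Snhg12 had 4.94, 5.13 and 5.71 CPM in WT and 8.34, 9.07 and 6.95 CPM in XBP1-KO, without overlap (log2 fold change 0.63, SE 0.23, adjusted p = 0.268 by edgeR), and Snhg6 had a log2 fold change of 0.55 (SE 0.21). Gas5, a host gene with a TOP start, had a log2 fold change of 0.22 (SE 0.13), close to the family's median.

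Of 21 genes of mTORC1 and TOP control 10 lay above 0 (median -0.05, 0 called, 2 unadjusted). Larp1, which binds the TOP start, had 49.2, 60.5 and 54.9 CPM in WT and 43.0, 44.9 and 41.4 CPM in XBP1-KO, without overlap (log2 fold change -0.35, SE 0.14, adjusted p = 0.299 by edgeR). Mycn, a driver of ribosome production in other cells, had at most 0.460 CPM in WT and 0.877 to 1.64 CPM in XBP1-KO.

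Of 23 translation initiation factors 17 lay above 0 (median 0.10, 0 called, 2 unadjusted). Eif3a, the scaffold of eIF3, had 241, 298 and 232 CPM in WT and 146, 192 and 163 CPM in XBP1-KO. Eif4g2, which acts in cap-independent initiation, had 1219, 1500 and 1510 CPM and 908, 1137 and 921 CPM. Both were lower without overlap, with adjusted p of 0.0830 and 0.138 by edgeR and 0.0121 and 0.0438 by DESeq2.

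Of 12 tested p53 targets, the genes that respond when free Rpl5 and Rpl11 hold MDM2, 6 lay above 0 (median -0.01, 0 called, 2 unadjusted). Cdkn1a, the cell cycle inhibitor p21, had 60.3, 50.6 and 80.3 CPM in WT and 49.5, 45.9 and 42.2 CPM in XBP1-KO, without overlap (log2 fold change -0.47, SE 0.17, adjusted p = 0.249 by edgeR). Mdm2 overlapped, with a log2 fold change of -0.10 (SE 0.14). Phlda3, an inhibitor of AKT, had at most 0.318 CPM in WT and at least 0.455 CPM in XBP1-KO.

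Of 28 mitochondrial ribosomal protein genes, whose products form the separate ribosome of that organelle, 26 lay above 0, with a median of 0.17, 0 called and 1 unadjusted. Mrpl13 had 40.4, 37.3 and 41.8 CPM in WT and 49.9, 49.7 and 47.6 CPM in XBP1-KO, without overlap (log2 fold change 0.30, SE 0.13, adjusted p = 0.360 by edgeR), and Mrps10 had a log2 fold change of 0.32 (SE 0.19).

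**Figure D5:**
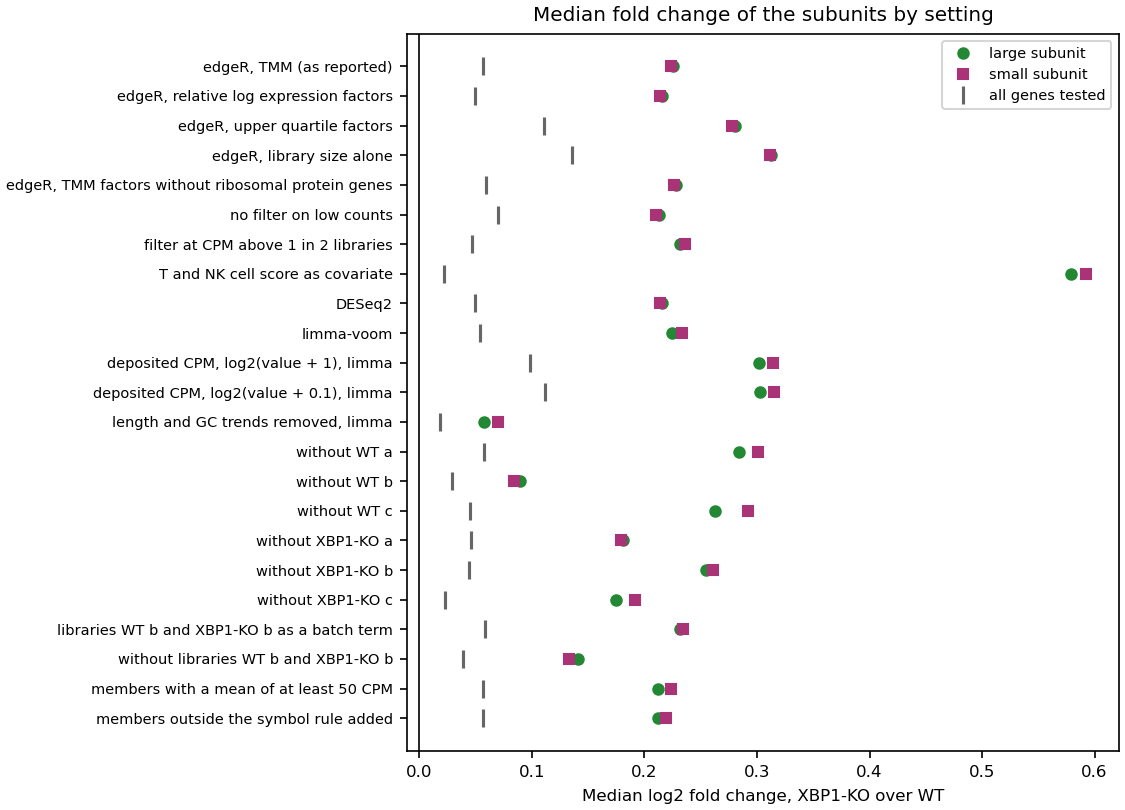
Median log2 fold change of the large and small subunit genes and of all genes tested under each way of processing the counts. The subunit medians lie above that of all genes in every setting, and are lowest with length and GC trends removed (0.06 and 0.07) and without WT b (0.09 and 0.08).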

How the data were processed

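RNA was sequenced in 3 WT and 3 XBP1-KO libraries made by standard Illumina protocols, per the labels' protocols. RSEM, edgeR and the build mm9 were used by the authors, per the submitters' processing notes, with no version and no role. For the aligner, strand setting and annotation, the choice is not given in the sources used here. As deposited, counts are whole numbers for 23225 gene symbols. A second deposited table of CPM holds 13946 genes and equalled the count over the library total, with a largest difference of 5.1e-11. The columns carry no replicate number, and 0 columns were left out.

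The whole table of counts was fitted in edgeR 4.0.16 (R 4.3.3). Genes were kept by filterByExpr (15958 genes, with all 78 members), scaled by TMM and tested two-sided with robust glmQLFit and glmQLFTest, genotype being the only term. Benjamini-Hochberg adjustment ran over all 15958 genes, and called means an adjusted p under 0.05. Standard errors are the absolute log2 fold change over the square root of F. The common biological coefficient of variation was 0.25, so that the spread between libraries, more than counting error, limited the precision of abundant genes. Within a genotype every pair of libraries differed by more than sampling noise (chi-square per degree of freedom 22.5 to 74.5 over genes of at least 20 counts). In a test on simulated data with 15511 genes, 71% of 100 genes changed 2-fold and 99% of 100 changed 4-fold were recovered, with 10 false calls. Smaller changes were not simulated. Members with at least 50 CPM changed at most 1.39-fold, so the test does not give the power for them.

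The members, the lists and the rule for named genes were chosen with earlier results of these data known. The rule took Rps19, Rpl4 and Rplp0, any member called, the 3 members of each subunit with the highest level, the highest and the lowest fold change among those with at least 50 CPM, members at the count limit of 60, paralogues, members with textbook roles, and the smallest 2 p-values of each context list. Rpl12, Rplp1, Rplp2, Rpl39, Rpl41, Rps29, Eef1a1, Tpt1, Gas5, Myc and Mdm2 were named outside it, after their values were seen, for their roles or values. Rpl13a, which the rule also lists, was not analysed here, and values of some genes are not reported here or drawn singly, though members among them stay in all counts and sums. Names, lengths (GENCODE vM21) and promoter windows (RefSeq) come from GRCm38, not the build of the counts, and none was used as a coordinate of the counts. Alternatives used DESeq2 1.42.0, limma 3.58.1, other scalings and filters, a marker score as covariate and left-out libraries.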

Additional observations from a re-analysis of the deposited data

How the results depend on the processing

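No member was called under any of 20 alternatives, where adjusted p-values were 0.0544 or higher. The subunit medians stayed above 0 in all of them. From 0.23 and 0.22 they went to 0.58 large and 0.59 small with the T and NK cell score as a covariate, to 0.058 and 0.070 with length and GC trends removed, and to 0.089 and 0.084 without WT b. The cause was not tested. Leaving out 1 library gave 0.09 to 0.28 for the large and 0.08 to 0.30 for the small subunit median, 1.05 to 1.19 and 1.06 to 1.21 for the ratio of summed levels, and 7 to 12 members lower in share without overlap, with fewer samples to overlap. Members at an unadjusted p under 0.05 numbered 1 without WT b and without XBP1-KO c, 28 under upper quartile scaling, 41 with a batch term that sets WT b and XBP1-KO b against the other 4 libraries, and 65 with library size alone. Genes called over the whole table were 25 higher and 46 lower, and 13 and 12 with library size alone. The batch term and the 4 libraries without WT b and XBP1-KO b were chosen after seeing the data. No paired analysis was possible because the columns carry no replicate number.

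Of 874 values of 44 named genes under alternatives, 823 kept direction and call, 39 changed sign and 12 became called (Eef2, Mybbp1a, Eif3a and Eif4g2, all lower). None of those with a changed sign was called, and the cause was not tested. With length and GC trends removed the log2 fold change was -0.072 for Rplp0, -0.022 for Rps3a, -0.19 for Rpl39l, -0.079 for Rps27l, -0.00041 for Rps6, -0.11 for Fau and -0.041 for Gnb2l1. Without a filter it was -0.00052 for Rplp0 and -0.0056 for Rpl7l1. In the 4 libraries it was -0.068 for Rplp0, -0.12 for Rpl7l1 and -0.047 for Gnb2l1. With the T and NK cell score it was 0.50 for Rpl10, -0.23 for Rpl7l1 and -2.39 for Rpl39l, and with limma-voom 0.0062 for Rpl10 and -0.17 for Rpl39l. Rpl10 had 0.051 under upper quartile scaling, 0.084 with library size alone, 0.0092 with the filter at 1 CPM, 0.087 on the deposited CPM with either pseudocount (1 or 0.1) and 0.0066 with the batch term. Leaving out 1 library gave -0.0024 to 0.17 for Rpl4, -0.13 to 0.079 for Rplp0, -0.16 to 0.069 for Rpl10, -0.076 to 0.051 for Rpl7l1, -0.016 to 0.20 for Rps9, -0.0069 to 0.18 for Rps3a, -0.014 to 0.15 for Rpsa, -0.23 to 0.85 for Rpl39l, -0.00076 to 0.25 for Rps4x and -0.090 to 0.11 for Gnb2l1.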
